A study of Mus musculus with 11 samples.

Results

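Endothelial cells line the blood vessels of the hindlimb (HL) bud, and 34 genes known from these cells were taken as a list by name and followed across the deposited expression values. The table held 33 of them among its 13720 genes, and Lyve1, a lymphatic endothelial gene, was not analysed here. All 33 were among the 12996 genes tested, which had at least 1 CPM, a read count scaled for library size, in 4 or more libraries. Gja4 and Ushbp1 reached that level in 10 of 11 libraries and the other 31 in all 11. The values came from 6 M1KO;M2KO embryos (KO, loss of Meis1 and Meis2) and 5 WT embryos at E10. Each library was made from the paired HLs of 1 embryo, so every value is a mean over mesenchyme, ectoderm, vessels and blood. The KO group had 3 libraries prepared with NuGen Ovation (S_258, S_280 and S_284) and 3 prepared with NEBNext Ultra II Directional (KO 2, KO 3 and KO 4). The WT group had 2 Ovation libraries (S_252 and S_254) and 3 NEBNext libraries (WT 1, WT 3 and WT 4). All Ovation KO embryos were male and came from litters 1, 3 and 4, whereas the Ovation WT embryos were female and from litter 1, so sex and genotype cannot be told apart there. WT S_254 was heterozygous for the Meis1 mutation. Embryos had about 30 to 33 somites. The NEBNext KO labels name the HoxB6CreER driver, and neither the sex nor the litter of the NEBNext embryos was used here. In the study Meis2 was a conditional allele, Meis1 was conditional or constitutively deleted, and HoxB6CreER was activated by tamoxifen in lateral plate mesoderm on a mixed genetic background. Whether endothelial cells of the KO buds had lost the genes was not measured.

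Limb vessels begin as a plexus of endothelial cells that enters the bud from the trunk and is then remodelled into arteries and veins. VEGF ligands from surrounding tissue act on the receptors Kdr, Flt1 and Flt4, angiopoietins act on Tek, and apelin acts on Aplnr. ETS factors such as Erg and Fli1 and the SoxF factors Sox7, Sox17 and Sox18 drive endothelial genes, Notch ligands and receptors set arterial fate, and Cdh5, Esam and Cldn5 hold the cells together.

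KO is the label's name for these libraries, since gene-level values of the targeted genes give no check of it. Meis1 averaged 134 ± 19.3 CPM in KO and 125 ± 17.3 CPM in WT (SD, n = 6 and 5), and Meis2 averaged 228 ± 35.8 CPM in KO and 216 ± 25.1 CPM in WT. Reads outside a deleted exon still count for the gene. The HL genes Pitx1 (22.1 ± 3.54 CPM in KO and 21 ± 4.06 CPM in WT) and Tbx4 (70.2 ± 11.2 CPM in KO and 69.3 ± 13.4 CPM in WT) were present in every library. The mesenchymal gene Prrx1 had 583 ± 98.3 CPM in KO and 421 ± 85.4 CPM in WT (adjusted p = 0.0927). In limma 272 of all genes tested passed an adjusted p of 0.05.

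Transcripts of the 33 genes made up 0.0667% to 0.0890% of the summed CPM in KO and 0.0636% to 0.0823% in WT libraries. Per kilobase of annotated exon, Aplnr (13.9 CPM per kb), the G protein-coupled apelin receptor, Cdh5 (12.3 CPM per kb), the cadherin of endothelial junctions, and Fli1 (10.4 CPM per kb) stood highest over the 11 libraries. Cd34 (8.17 CPM per kb), a sialomucin also carried by blood progenitors, Erg (7.49 CPM per kb) and Kdr (7.41 CPM per kb) came next. The next member was Emcn, endomucin, at 5.98 CPM per kb. At the low end were Robo4 (0.793 CPM per kb), Dll4 (0.759 CPM per kb), Nos3 (0.689 CPM per kb), Notch4 (0.675 CPM per kb), Sox17 (0.643 CPM per kb) and Ushbp1 (0.382 CPM per kb). Among all genes tested these levels spanned the 79.1 percentile for Aplnr down to the 6.54 percentile for Ushbp1. Summed over the 33 genes, the level was 597 ± 66.2 CPM in KO (513 to 674) and 571 ± 63.3 CPM in WT (507 to 645), and the groups overlapped.

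**Figure D1:**
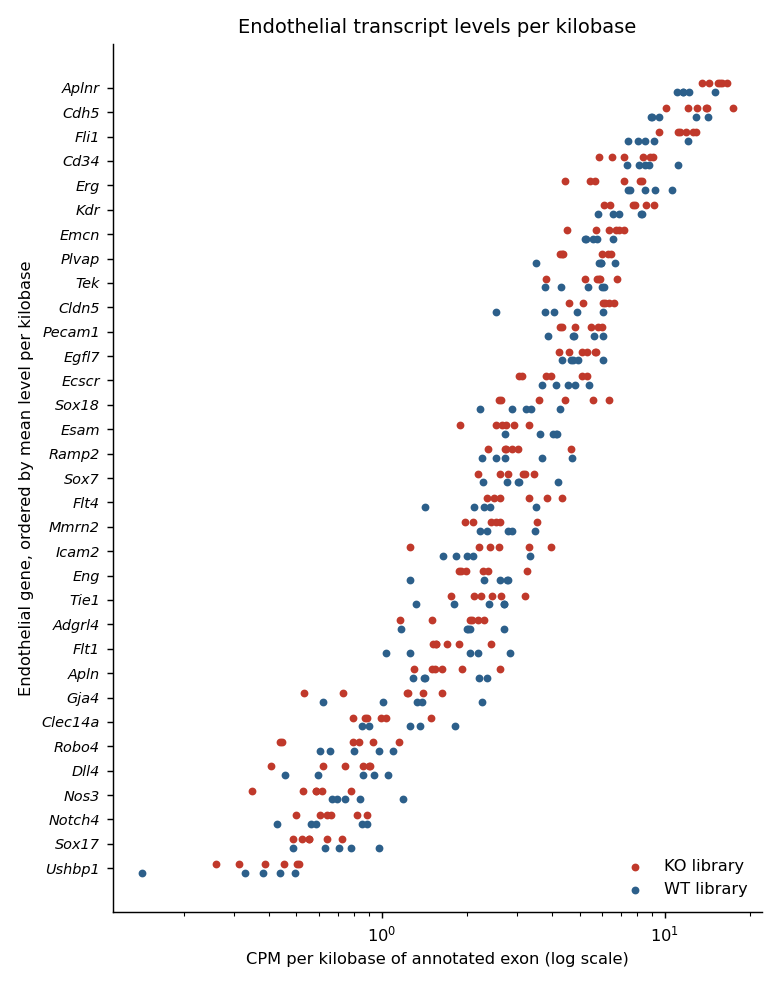
Level of the 33 endothelial genes in CPM per kilobase of exon on a log axis, ordered from high to low, each point being 1 library, with KO points drawn above WT points. Aplnr at 13.9 CPM per kb over all libraries and Ushbp1 at 0.382 CPM per kb are the ends of the range.

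None of the 33 endothelial genes passed the test of KO against WT, and 2.09% of all genes tested did (limma on log2 values with library set as a term, Benjamini-Hochberg adjusted p under 0.05). At an unadjusted p under 0.05 there were 5, or 15.2% of the list, against 14.7% of all genes tested. Of these, Aplnr, Fli1 and Cldn5 had higher fitted values in KO (9.09%, against 7.31% of all genes) and Erg and Esam lower ones (6.06%, against 7.43%). The log2 difference of KO minus WT was above 0 for 16 genes (48.5%, against 50.2% of all genes) and below 0 for 17 (51.5%, against 49.8%). Its median was -0.01, against 0.00 over all genes tested, and it ran between -0.45 for Esam and 0.47 for Cldn5. For no endothelial gene did all KO libraries lie on 1 side of all WT libraries, which 3.49% of genes tested did. The median standard error of a member's difference was 0.20 on the log2 scale. Missing the threshold at such an error does not show equal levels. On GRCm38 these 5 genes lie at separate loci, Aplnr at chr2:85136225-85139923, Fli1 at chr9:32422204-32542861, Cldn5 at chr16:18776847-18778262, Erg at chr16:95359169-95586593 and Esam at chr9:37528078-37538319. In bulk tissue, fewer endothelial cells and less RNA per endothelial cell cannot be told apart.

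**Figure D2:**
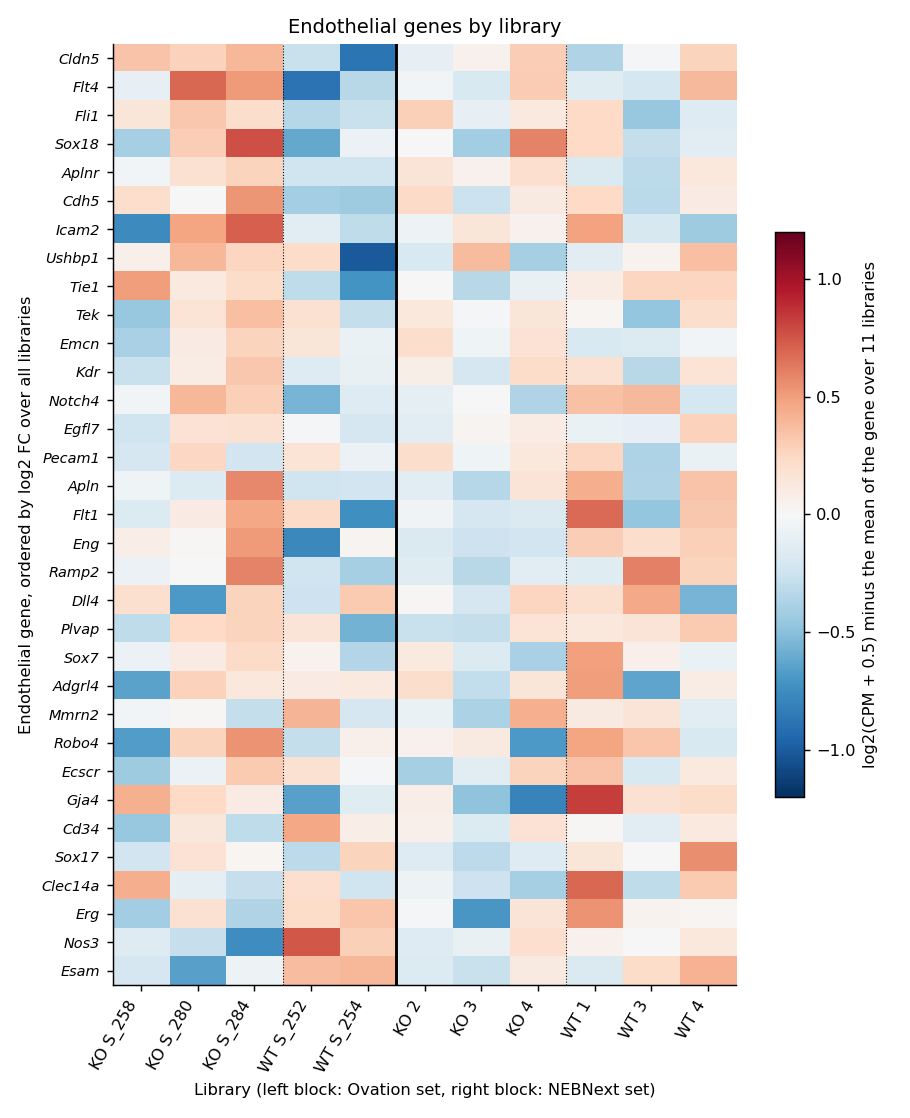
Heat map of 33 endothelial genes in 11 libraries, each cell being the gene's log2(CPM + 0.5) minus its mean over all 11 libraries, with KO libraries left of WT libraries within each set. KO S_284 was the highest of all 11 libraries for 11 genes, and WT 1 for 8.

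Among the receptors and their ligand, Aplnr had the lowest adjusted p of the list. Its level was 49.9, 57.8 and 61.5 CPM in the Ovation KO libraries and 56.8, 52.8 and 58.8 CPM in the NEBNext KO libraries, against 43.0 and 43.0 CPM in Ovation WT and 45.1, 40.7 and 55.5 CPM in NEBNext WT. Only WT 4 reached into the KO range, where it exceeded S_258 and KO 3. The log2 difference was 0.31 (SE 0.09, adjusted p = 0.0997), or 0.38 for Ovation and 0.26 for NEBNext libraries. Flt4, the VEGF-C and VEGF-D receptor, had 20.5, 35.7 and 31.5 CPM in Ovation KO and 21.5, 19.3 and 27.2 CPM in NEBNext KO, against 11.7 and 17.4 CPM in Ovation WT and 19.9, 18.9 and 28.9 CPM in NEBNext WT. All Ovation KO libraries exceeded both Ovation WT libraries, while the NEBNext groups overlapped. Its log2 difference was 0.44 (SE 0.21, adjusted p = 0.358).

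Kdr, the main VEGF receptor, averaged 68.8 ± 10.9 CPM in KO and 64.6 ± 9.78 CPM in WT, and its difference was close to 0 in the Ovation (0.17) and NEBNext (0.03) sets on the log2 scale. Flt1, which binds VEGF and limits its action on Kdr, averaged 23.9 ± 4.71 CPM in KO and 25.3 ± 9.87 CPM in WT, the WT libraries spreading between 14.01 and 38.3 CPM. Tek, the angiopoietin receptor, averaged 26.2 ± 4.69 CPM in KO and 24.1 ± 4.87 CPM in WT. Its partner Tie1 averaged 11.8 ± 2.45 CPM in KO and 10.7 ± 2.97 CPM in WT. Apln, the ligand of Aplnr, averaged 5.52 ± 1.47 CPM in KO and 5.48 ± 1.58 CPM in WT. The median log2 difference of these 7 receptors and ligand was 0.12.

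The 11 junction and surface genes had a median log2 difference of -0.06 and held both ends of the list. Cldn5, the claudin of endothelial tight junctions, had 8.98, 8.58 and 9.39 CPM in Ovation KO and 6.49, 7.26 and 8.69 CPM in NEBNext KO, against 5.75 and 3.59 CPM in Ovation WT and 5.34, 6.92 and 8.55 CPM in NEBNext WT. The Ovation groups were apart and the NEBNext groups overlapped. The log2 difference was 0.47 (SE 0.20, adjusted p = 0.278). Esam, an immunoglobulin-family adhesion molecule of the same junctions that platelets also carry, had 7.62, 5.42 and 8.44 CPM in Ovation KO and 7.85, 7.25 and 9.52 CPM in NEBNext KO, against 11.6 and 11.8 CPM in Ovation WT and 7.78, 10.4 and 11.97 CPM in NEBNext WT. Of the WT libraries, only WT 1 lay within the KO range. The log2 difference was -0.45 (SE 0.17, adjusted p = 0.205). Cdh5 had 58.8, 50.8 and 73.1 CPM in Ovation KO and 59.2, 42.2 and 54.6 CPM in NEBNext KO, against 37.9 and 37.4 CPM in Ovation WT and 59.7, 40.2 and 54.0 CPM in NEBNext WT. As with Flt4, the Ovation groups were apart and the NEBNext groups were mixed, and the log2 difference was 0.31 (SE 0.15, adjusted p = 0.366).

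Means of the other surface genes differed by less than the larger SD of the groups. Pecam1, an adhesion molecule shared with platelets and leukocytes, averaged 31.9 ± 4.65 CPM in KO and 31.2 ± 5.29 CPM in WT. Cd34 averaged 55.7 ± 9.71 CPM in KO and 64.1 ± 10.5 CPM in WT. Emcn averaged 33.7 ± 5.32 CPM in KO and 30.7 ± 2.95 CPM in WT, and Plvap, a component of endothelial diaphragms, averaged 10.5 ± 2.13 CPM in KO and 11.1 ± 2.41 CPM in WT. Adgrl4, an adhesion G protein-coupled receptor, averaged 8.62 ± 2.05 CPM in KO and 9.11 ± 2.503 CPM in WT, and the adhesion molecule Icam2 averaged 4.999 ± 1.78 CPM in KO and 4.15 ± 1.28 CPM in WT. None of these 6 genes had an unadjusted p under 0.05. Clec14a, a lectin-like surface glycoprotein, had 6.84, 4.56 and 3.99 CPM in Ovation KO and 4.72, 4.06 and 3.62 CPM in NEBNext KO, against 5.76 and 4.11 CPM in Ovation WT and 8.26, 3.90 and 6.25 CPM in NEBNext WT. KO S_258 stood above the other KO libraries, and the groups overlapped in both sets (log2 difference -0.24, SE 0.22, adjusted p = 0.679). Gja4, a connexin of arterial endothelium, averaged 1.90 ± 0.702 CPM in KO and 2.23 ± 1.02 CPM in WT.

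The 2 ETS factors of the list lay on opposite sides of 0. Erg had 18.8, 28.7 and 19.6 CPM in Ovation KO and 24.9, 15.4 and 28.3 CPM in NEBNext KO, against 29.5 and 31.9 CPM in Ovation WT and 36.9, 26.0 and 25.7 CPM in NEBNext WT. The KO libraries S_280 and KO 4 reached above the lowest WT libraries, and the other 4 KO libraries lay below all WT libraries. The log2 difference was -0.43 (SE 0.17, adjusted p = 0.239), or -0.47 for Ovation and -0.39 for NEBNext libraries. Fli1, which is also active in megakaryocytes, had 39.4, 44.8 and 41.5 CPM in Ovation KO and 43.7, 33.3 and 38.7 CPM in NEBNext KO, against 27.9 and 29.6 CPM in Ovation WT and 42.1, 25.8 and 31.9 CPM in NEBNext WT. WT 1 was the only WT library above any KO library. The log2 difference was 0.37 (SE 0.12, adjusted p = 0.167), or 0.53 for Ovation and 0.23 for NEBNext libraries. Of the SoxF factors, Sox7 averaged 9.58 ± 1.53 CPM in KO and 10.1 ± 2.33 CPM in WT, Sox17 averaged 2.77 ± 0.414 CPM in KO and 3.42 ± 0.868 CPM in WT, and Sox18 averaged 6.80 ± 2.495 CPM in KO and 5.18 ± 1.21 CPM in WT. A neighbouring transcript shares 16.8% of the annotated exon length of Sox17 on the other strand.

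**Figure D3:**
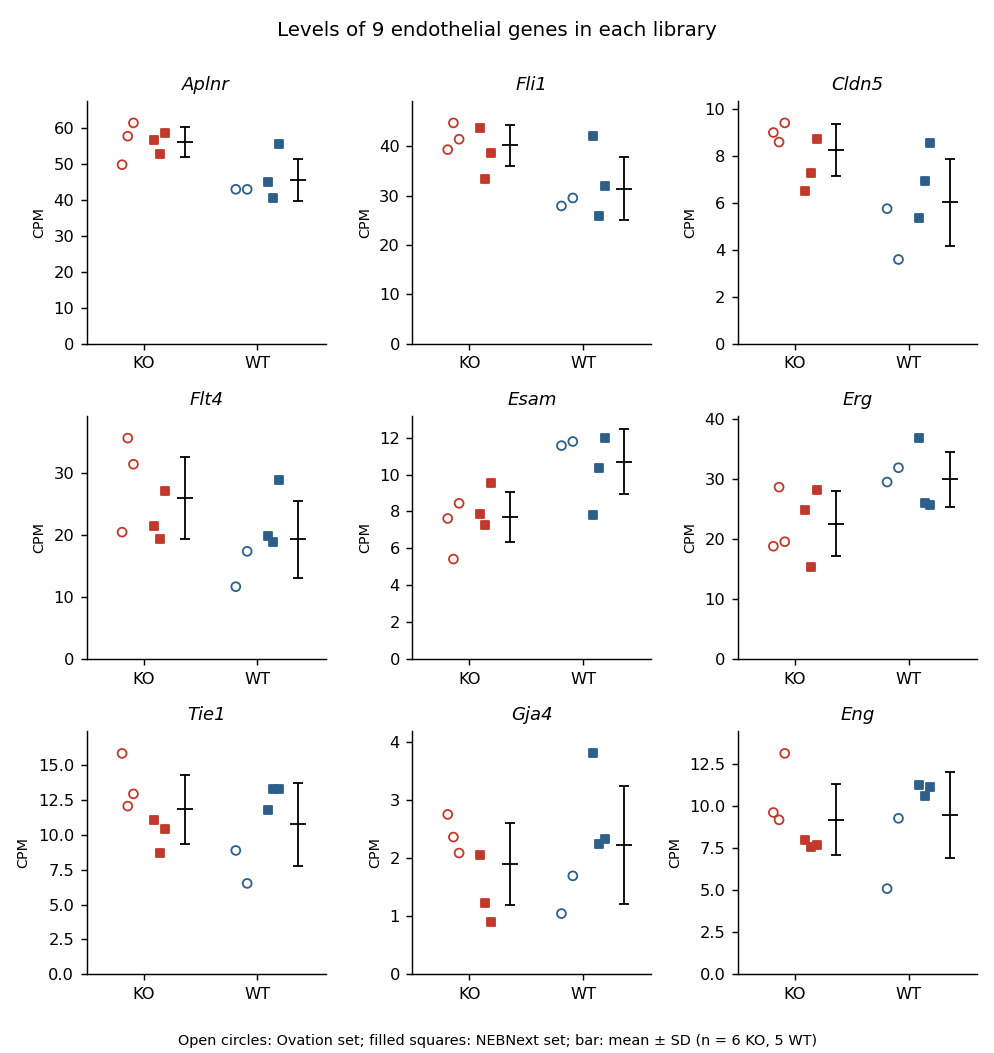
CPM in each library for 9 endothelial genes, KO left of WT, with open circles for the Ovation set, filled squares for the NEBNext set and a bar for the mean ± SD (n = 6 KO, 5 WT). Aplnr and Fli1 are mostly higher in KO and Erg and Esam mostly lower, while for Tie1 and Gja4 circles and squares separate in opposite directions.

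Both Notch genes of the list were low. Dll4, the arterial Notch ligand, averaged 2.85 ± 0.759 CPM in KO and 3.01 ± 0.956 CPM in WT, and the receptor Notch4 averaged 5.53 ± 1.15 CPM in KO and 5.34 ± 1.604 CPM in WT.

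The 8 remaining genes act in endothelial signalling or secretion, apart from Ushbp1, and their median log2 difference was -0.07. Eng, a co-receptor for BMP and TGF-β ligands, averaged 9.22 ± 2.11 CPM in KO and 9.49 ± 2.58 CPM in WT. Ramp2, which turns the receptor Calcrl into an adrenomedullin receptor, averaged 10.1 ± 2.65 CPM in KO and 10.5 ± 3.28 CPM in WT, and shares 33.4% of its exon length with Vps25 on the same strand, so part of its reads is uncertain. Egfl7, a secreted vessel protein, averaged 18.2 ± 2.13 CPM in KO and 17.7 ± 2.37 CPM in WT. The guidance receptor Robo4 averaged 4.05 ± 1.48 CPM in KO and 4.39 ± 1.104 CPM in WT. Mmrn2, an endothelial matrix protein, averaged 10.04 ± 2.18 CPM in KO and 10.9 ± 1.95 CPM in WT, and Ecscr, an endothelial surface protein, averaged 7.11 ± 1.68 CPM in KO and 7.90 ± 1.15 CPM in WT. Nos3, the endothelial nitric oxide synthase, averaged 2.38 ± 0.581 CPM in KO and 3.42 ± 0.888 CPM in WT. Its log2 difference was -0.45 (SE 0.22, adjusted p = 0.368), and 25.2% of its exon length is shared with the antisense transcript Gm15587. Ushbp1 averaged 2.61 ± 0.662 CPM in KO and 2.30 ± 0.868 CPM in WT.

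The library sets gave opposite directions about as often in the list as over all genes tested. In the Ovation set 23 of 33 genes (69.7%, against 51.7% of all genes tested) were higher in KO, with a median log2 difference of 0.24 against 0.01 over all genes. In the NEBNext set 20 of 33 (60.6%, against 51.1%) were lower in KO, with a median of -0.08 against -0.01. Opposite signs in the sets were found for 18 genes (54.5%, against 48.0%), and 14 of them were higher in the Ovation and lower in the NEBNext KO libraries (42.4% of the list, against 25.4%). None passed within the Ovation set, where 1.15% of genes tested did, or within the NEBNext set, where 0.0231% did. At an unadjusted p under 0.05 limma gave 10 genes in the Ovation set, or 30.3%, against 17.1% of all genes. Fitted values were higher in KO for Aplnr, Cdh5, Cldn5, Fli1, Flt4 and Tie1 (18.2%, against 9.01%) and lower for Cd34, Erg, Esam and Nos3 (12.1%, against 8.12%). It gave 2 in the NEBNext set, Eng and Gja4, both with lower fitted values in KO (6.06%, against 12% in either direction and 6.83% with lower values). In the Ovation set the KO and WT libraries did not overlap for 13 genes (39.4%, against 35.2%), with KO above WT for 10 of them (30.3%, against 17.9%) and below WT for Erg, Esam and Nos3 (9.09%, against 17.3%). In the NEBNext set they did not overlap for 4 (12.1%, against 18.8%), Eng, Gja4, Sox17 and Tie1, all with KO below WT (10.4% of all genes).

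The positive Ovation median depended on KO S_280 and S_284, single embryos of litters 3 and 4. Their labels give 32 to 33 and 31 to 32 somites, against 30 to 31 for KO S_258 and WT S_252 and 32 for WT S_254. Litter, stage and single embryo cannot be told apart here. KO S_258, the littermate of the WT embryos, had a median of -0.12 relative to the mean of its set over the 33 genes, on the log2 scale, whereas S_280 had 0.17 and S_284 had 0.28. The WT libraries S_252 and S_254 had -0.13 and -0.18. Within litter 1 alone, that is 1 KO against 2 WT embryos, the median log2 difference was -0.050 in place of 0.24. In the NEBNext set KO 2, KO 3 and KO 4 had medians of -0.05, -0.21 and 0.13, and WT 1, WT 3 and WT 4 had 0.16, -0.11 and 0.12, so the groups were mixed. Over all genes tested, these library medians lay between -0.01 and 0.02. After removal of genotype and set, the residual SD of the endothelial genes had a median of 0.33 on the log2 scale, against 0.23 for the 8825 tested genes in the same range of levels. It was lowest for Aplnr (0.15) and highest for Gja4 (0.53).

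**Figure D4:**
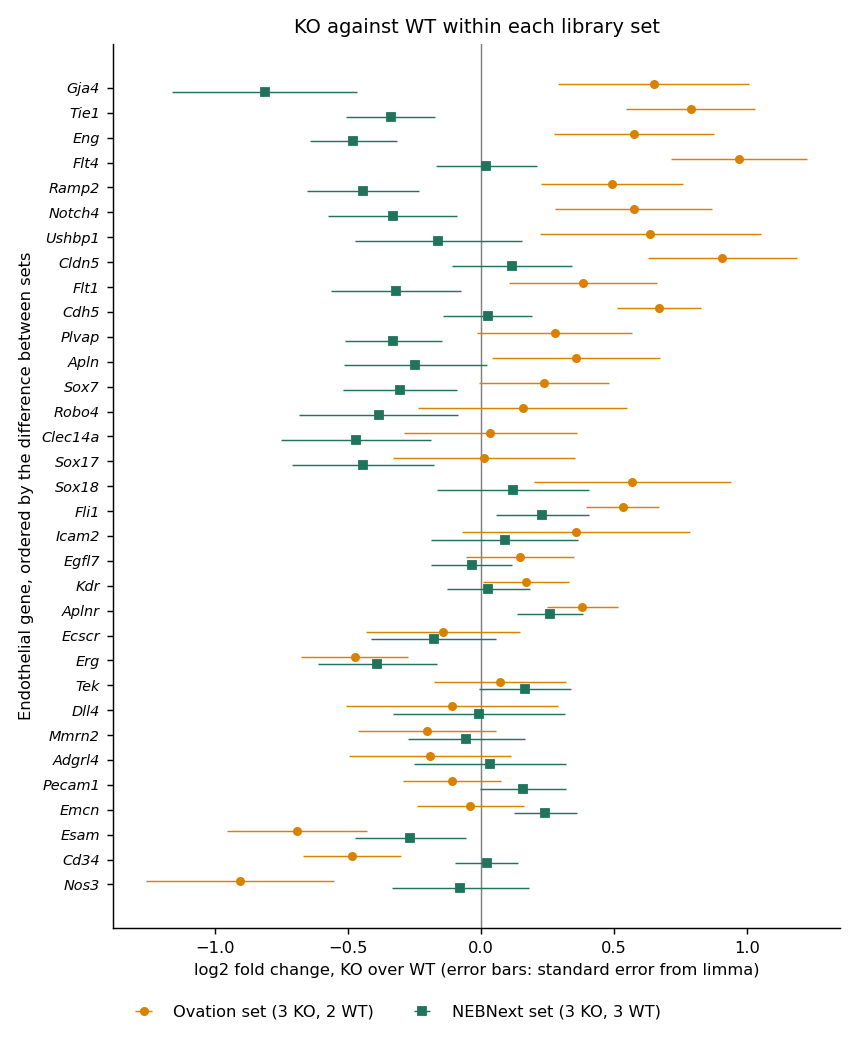
Log2 difference of KO minus WT for each endothelial gene within the Ovation set and within the NEBNext set, with error bars of 1 SE. Ovation values have a median of 0.24 and NEBNext values a median of -0.08, and Gja4 and Tie1 lie on opposite sides of 0 in the sets.

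The test of the difference between sets gave no gene of the list and 0% of all genes tested, the lowest adjusted p of any gene being 0.0741. At an unadjusted p under 0.05 limma gave 8 endothelial genes, Cdh5, Cldn5, Eng, Flt4, Gja4, Notch4, Ramp2 and Tie1 (24.2%, against 13.0% of all genes), each with a lower KO minus WT difference in the NEBNext set (7.41% of all genes had this direction). Tie1 had 15.8, 12.05 and 12.9 CPM in Ovation KO against 8.87 and 6.51 CPM in Ovation WT, and 11.02, 8.67 and 10.4 CPM in NEBNext KO against 11.7, 13.3 and 13.3 CPM in NEBNext WT. The KO libraries thus lay above WT in 1 set and below WT in the other, with log2 differences of 0.79 and -0.34 that differed by -1.13 (SE 0.27, adjusted p = 0.134). Gja4 had 2.75, 2.36 and 2.09 CPM in Ovation KO against 1.05 and 1.70 CPM in Ovation WT, and 2.06, 1.23 and 0.893 CPM in NEBNext KO against 3.81, 2.25 and 2.33 CPM in NEBNext WT. Its log2 differences of 0.65 and -0.81 differed by -1.46 (SE 0.48, adjusted p = 0.236). Eng had 9.64, 9.20 and 13.2 CPM in Ovation KO against 5.11 and 9.29 CPM in Ovation WT, and 8.02, 7.56 and 7.71 CPM in NEBNext KO against 11.3, 10.6 and 11.2 CPM in NEBNext WT. The NEBNext KO libraries lay below all NEBNext WT libraries, the Ovation groups overlapped, and the difference between sets was -1.05 on the log2 scale (SE 0.32, adjusted p = 0.206). Tie1 and Gja4 were the 2 genes of the list without overlap in both sets and in opposite directions (6.06%, against 2.83% of all genes, or 1.75% with KO above in the Ovation set). The batch correction of the deposited values had brought the set means of all 33 genes to within 0.1 of each other on the log2 scale, as for 97.1% of genes tested, so a WT level in 1 set is not an absolute measure against the other set.

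The 250 bases upstream of the RefSeq start sites of Tie1, Gja4 and Eng, the genes with the largest negative differences between sets, are shown because ETS factors are known regulators of endothelial promoters. Sequences are from RefSeq on GRCm38.p6, 5′ to 3′ on the gene's strand, with AGGAAG or CGGAAG on either strand in capitals. Tie1 lies at chr4:118489850-118490099 (minus strand) with 2 matches, Gja4 at chr4:127314040-127314289 (minus strand) with none, and Eng at chr2:32646345-32646594 (plus strand) with 2. In the annotation that gave exon lengths Tie1 spans chr4:118471191-118490061, so most of its window lies within the gene there.
Tie1: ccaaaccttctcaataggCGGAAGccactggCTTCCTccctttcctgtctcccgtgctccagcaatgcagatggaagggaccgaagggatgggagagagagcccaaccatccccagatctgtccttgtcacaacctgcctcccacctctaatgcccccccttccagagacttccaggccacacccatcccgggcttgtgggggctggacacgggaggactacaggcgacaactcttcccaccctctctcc
Gja4: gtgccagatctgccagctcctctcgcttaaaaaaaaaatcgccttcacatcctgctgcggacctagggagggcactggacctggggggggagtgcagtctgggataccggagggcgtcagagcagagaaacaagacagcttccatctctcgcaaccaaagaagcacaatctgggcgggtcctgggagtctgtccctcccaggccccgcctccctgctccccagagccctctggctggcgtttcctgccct
Eng: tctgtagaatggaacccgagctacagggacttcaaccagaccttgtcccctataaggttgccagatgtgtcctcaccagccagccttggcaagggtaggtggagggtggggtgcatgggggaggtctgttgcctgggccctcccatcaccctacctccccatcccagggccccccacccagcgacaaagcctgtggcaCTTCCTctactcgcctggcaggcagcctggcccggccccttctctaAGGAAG
Windows of this kind were found for 19 of the 34 genes, 23 windows in all. An AGGAAG or CGGAAG was found in 13 of them (56.5%), against 39.2% of 32851 windows of all genes. TGACAG, a core known for TALE factors such as Meis, whose last 2 letters can be the first of AGGAAG, was found in 7 (30.4%), against 15.9% of all windows. These matches describe letters and not binding.

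Several vascular genes outside the list passed the test. The lists named from here on were chosen with earlier results of these data known, so their counts are no separate support. Of 18 vascular growth factors, 2 rose and 1 fell in KO HL buds, where 1.04% of all genes rose and 1.05% fell. Vegfd, a ligand of Flt4, fell to 5.48, 2.95 and 5.33 CPM in Ovation KO and 2.86, 2.34 and 7.25 CPM in NEBNext KO, against 11.2 and 10.02 CPM in Ovation WT and 14.8, 11.1 and 8.37 CPM in NEBNext WT. It was lower in each KO library than in any WT library (log2 difference -1.34, SE 0.26, adjusted p = 0.0196). Sema3c, a secreted semaphorin, rose to 29.8 ± 6.49 CPM in KO, against 16.1 ± 3.54 CPM in WT (1.83-fold, adjusted p = 0.0203), the closest libraries being KO 4 with 21.03 CPM and WT 4 with 20.9 CPM. Cxcl12, the chemokine that acts on Cxcr4, rose to 57.3 ± 9.59 CPM in KO, against 35.1 ± 8.30 CPM in WT (1.65-fold, adjusted p = 0.0238). Vegfa, the main ligand of Kdr, had a log2 difference of -0.21 and did not pass (adjusted p = 0.378). Vegfc, the other Flt4 ligand, went the opposite way to Vegfd without passing in limma (log2 difference 0.60, SE 0.15, adjusted p = 0.0655). It lay between 14.3 and 19.5 CPM in KO and between 8.78 and 16.1 CPM in WT, so the groups overlapped.

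Of 29 other endothelial receptors and signalling genes tested, only Nrp2 passed, where 2.09% of all genes did. Nrp2, a co-receptor for semaphorins and VEGF-C, rose to 152 ± 37.1 CPM in KO, against 78.8 ± 10.5 CPM in WT (1.90-fold, adjusted p = 0.0122). KO 4 with 90.7 CPM was just above the highest WT library, WT 4, with 90.4 CPM. Venous and lymphatic genes had 2 of 9 that rose, Nr2f2 and again Nrp2, which stands in both lists (1.04% of all genes rose). Nr2f2, a nuclear receptor of venous identity that limb mesenchyme also expresses, rose to 175 ± 19.7 CPM in KO, against 117 ± 17.5 CPM in WT (1.51-fold, adjusted p = 0.0105). Of 28 further pan-endothelial markers, Ldb2 rose to 23.6 ± 2.05 CPM in KO, against 15.6 ± 2.23 CPM in WT (1.51-fold, adjusted p = 0.0173). The cells in which these genes differed were not measured. Of 16 arterial genes and 19 other endothelial transcription factors, none passed in limma, with 2 and 4 at an unadjusted p under 0.05, where 14.7% of all genes were. The median log2 differences of these lists lay between -0.02 for growth factors and 0.15 for venous and lymphatic genes.

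**Figure D5:**
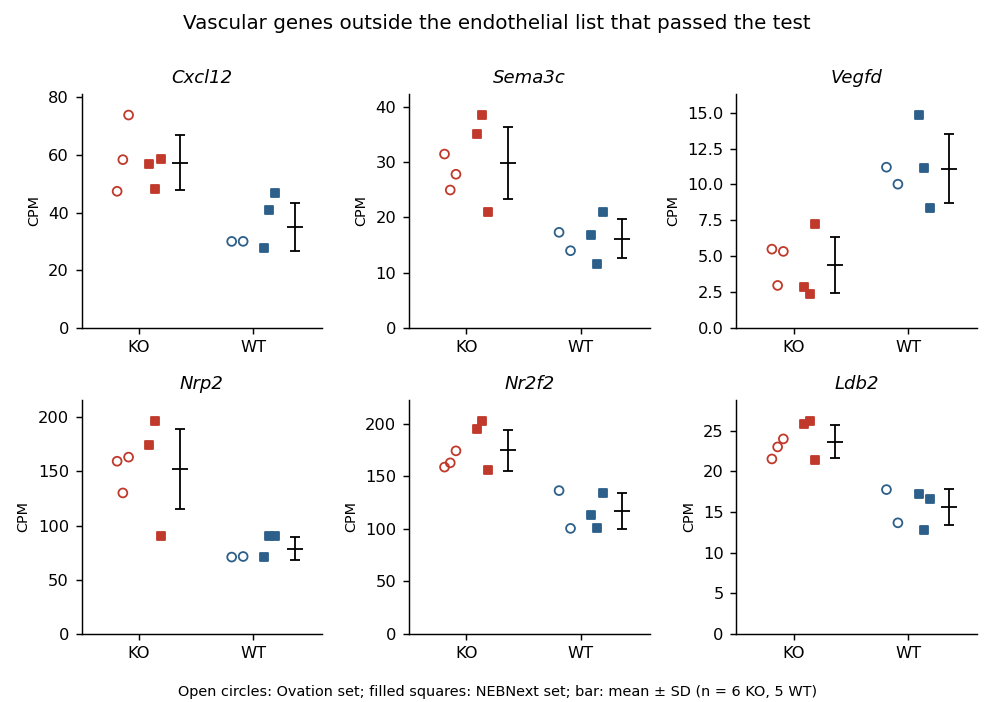
CPM in each library of 6 vascular genes outside the list that passed the test, KO left of WT, with open circles for the Ovation set, filled squares for the NEBNext set and a bar for the mean ± SD (n = 6 KO, 5 WT). KO and WT libraries do not overlap for any of the 6, as for 3.49% of all genes tested. The 6 were chosen for passing in these same libraries, so this is no separate support. Nrp2 and Sema3c come closest, at 90.7 against 90.4 CPM and at 21.03 against 20.9 CPM.

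Some of these calls depended on single libraries or on the variance model. Nrp2 and Nr2f2 passed with any 1 library left out, although with litter 1 alone in the Ovation set their adjusted p was 0.0619 and 0.0552. Vegfd lost its call without WT S_252, KO 2 or WT 1 (adjusted p up to 0.0651), Sema3c without WT S_254 or KO 2 (up to 0.0709), Ldb2 without WT S_254 or KO 2 (up to 0.0641), and Cxcl12 without WT S_252, WT S_254, KO 2 or WT 1 (up to 0.0880). With litter 1 alone in the Ovation set the adjusted p of these 4 genes was 0.0776, 0.0658, 0.0874 and 0.102 in the same order. Without a mean-variance trend Cxcl12 (adjusted p = 0.0684) and Sema3c (adjusted p = 0.0517) did not pass.

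The lists of mural cells and basement membrane held 2 calls each. Of 11 mural cell markers 2 rose, where 1.04% of all genes did. They were Mylk, a myosin light chain kinase, which rose to 13.5 ± 1.15 CPM in KO, against 6.99 ± 1.55 CPM in WT (adjusted p = 0.00635), and the transcription factor Tbx2, which rose to 9.21 ± 1.79 CPM in KO, against 4.87 ± 0.709 CPM in WT (adjusted p = 0.0156). Tbx2 lost its call without WT S_252 or KO 2 (adjusted p up to 0.0560). Both are also expressed by limb mesenchyme. Rgs5 of the same list went the other way without passing. It averaged 3.94 ± 1.89 CPM in KO and 7.39 ± 2.57 CPM in WT (log2 difference -0.91, adjusted p = 0.214). Of the 11 mural markers, 9 had a log2 difference above 0, with a median of 0.18. Of 16 basement membrane genes, the integrin subunit Itga4 rose (log2 difference 0.91, adjusted p = 0.0217) and Itgav fell (log2 difference -0.48, adjusted p = 0.0250). Among all genes tested 1.04% rose and 1.05% fell. Without WT S_252 the adjusted p of Itga4 was 0.0655, and Itgav lost its call without KO S_284, KO 2, WT S_252, WT S_254 or WT 1 (adjusted p up to 0.0850). Without a mean-variance trend neither Itga4 (adjusted p = 0.0612) nor Itgav (adjusted p = 0.0731) passed.

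Among the blood lists, only that of platelets held calls. Of 11 platelet and megakaryocyte markers 3 fell, where 1.05% of all genes did, and the median log2 difference was -0.80, against 0.00 over all genes. Of 18 named markers, 11 were tested. Gp1ba stayed at or below 0.779 CPM in KO, so it entered the test through WT libraries alone. Ppbp lay between 0.287 and 1.42 CPM in KO and at 2.87 CPM or more in WT, so the WT libraries alone met the filter for it too. With a filter of 5 CPM neither Ppbp nor Pf4 was tested. The filter and values near the floor thus bear on this count and median. Ppbp fell to 0.837 ± 0.401 CPM in KO, against 6.56 ± 3.85 CPM in WT (adjusted p = 0.00593), Pf4 to 1.46 ± 0.540 CPM in KO, against 8.50 ± 5.76 CPM in WT (adjusted p = 0.0168), and Thbs1 by 0.98 on the log2 scale (adjusted p = 0.0411). For Pf4 the adjusted p was 0.0632 without WT S_254, and Thbs1 lost its call without KO S_280, KO S_284, KO 2, KO 3, WT S_252, WT S_254 or WT 1 (up to 0.127). Thbs1 did not pass without a mean-variance trend (adjusted p = 0.0945) or with a robust variance (adjusted p = 0.0693) either. Of the mural, basement membrane and platelet genes that passed over all libraries, Mylk (adjusted p = 0.0460) and Ppbp (adjusted p = 0.0315) also passed with litter 1 alone in the Ovation set. Tbx2, Itga4, Itgav, Pf4 and Thbs1 did not (0.0670 to 0.199). The summed platelet level was 38.0 to 76.2 CPM in KO and 67.7 to 186 CPM in WT. Esam, Pecam1, Fli1 and Erg of the endothelial list are known in platelets or megakaryocytes too, and the part of those cells in their values was not tested. Erythroid markers, with none of 21 passing in limma and 0 at an unadjusted p under 0.05, summed to between 1473 and 13930 CPM in KO and between 1918 and 12462 CPM in WT. Their median log2 difference was 0.27, with 17 of 21 above 0 (50.2% of all genes were). The standard errors ran from 0.36 for Tmod1 to 0.74 for Hbb-bs, so missing the threshold does not show equal levels. Macrophage and leukocyte markers, with none of 10 passing and 0 at an unadjusted p under 0.05, summed to 17.1 to 27.3 CPM in KO and 14.8 to 26.2 CPM in WT, so these groups overlapped in both lineages. Of 16 hypoxia response genes none passed in limma, 6 had an unadjusted p under 0.05 (as did 14.7% of all genes), and the median log2 difference was -0.28, against 0.00 over all genes.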

How the data were processed

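RNA from E10 HL buds of 6 KO and 5 WT embryos was sequenced as libraries of 2 preparation sets. Per the labels, Ovation reads were processed with CASAVA 1.8.2, cutadapt 1.3 and RSEM 1.2.3 on GRCm38, and NEBNext reads with bcl2fastq, cutadapt, RSEM and limma, for which the labels name no versions. The study's methods name the same cutadapt and RSEM versions for its RNA-seq without separating the sets. The authors scaled the estimated counts by TMM, removed batch differences with ComBat and deposited linear CPM, which summed to 754534 to 805762 per library with no value at 0. Read depth is therefore unknown, no counting interval is given, and batch correction can understate residual variance. The sources do not say whether ComBat was given genotype, and its effect on the differences between KO and WT and between sets was not tested. Replicates are separate embryos per the labels.

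Of 13720 genes, the 12996 that reached 1 CPM in 4 or more libraries were tested. The R package limma (3.58.1, R 4.3.3) was run on log2(CPM + 0.5), with terms for genotype and library set and a mean-variance trend (8 residual degrees of freedom). The p-values were two-sided and Benjamini-Hochberg adjusted over all genes tested, and the threshold was 0.05. The model was also fitted within each set (3 and 4 residual degrees of freedom) and with an interaction of genotype and set. Fold changes include the pseudocount. GENCODE M21, with 99.9% of genes matched by identifier, gave exon lengths. Tables and plots used Python 3.11.15, pandas 2.3.3, numpy 2.4.6 and matplotlib 3.10.9. The fit was tested on simulated independent noise without batch correction. The changes put in were larger than any difference of the list over all libraries, so differences of that size were not covered. Alternatives were pseudocounts, filters, scalings, variance models, covariates, leaving out each library, restricting Ovation libraries to litter 1 and blocking on replicate numbers.

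The genes and lists were chosen with earlier results of these data known. Values in every library were given for genes passing a test, the 6 with the smallest p, the 3 highest per kilobase, the 3 largest differences in each direction among genes at 5 CPM, and genes without overlap between groups. From each other list up to 4 genes that passed were named, and otherwise at most 1. Tie1, Gja4, Eng, Vegfa, Vegfc, Rgs5 and Gp1ba were named after their values had been seen. Of 10 HL mesenchyme markers only Msx1 passed in limma, with a log2 difference of -0.69, where 2.09% of all genes passed. Of these 10, 5 had an unadjusted p under 0.05 (14.7% of all genes did) and 8 had a log2 difference above 0 (50.2% of all genes did). None of 10 surface ectoderm markers passed in limma, and 2 had an unadjusted p under 0.05.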

Additional observations from a re-analysis of the deposited data

Results flagged for a closer look

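Dixon's criterion at the 95% level was applied to the KO and the WT libraries of each of the 33 endothelial genes. Of 66 such groups 5 held a library far from the rest, and chance gives about 1 in 20 groups, or 3.3. KO S_284 stood above the other KO libraries for Eng, with 13.2 CPM, and for Ramp2, with 15.3 CPM. KO S_258 stood above them for Clec14a, with 6.84 CPM. Among WT libraries, WT 1 was apart for Icam2 with 6.36 CPM and S_254 was apart for Plvap with 6.95 CPM.

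For 2 genes the libraries separated in opposite directions in the sets. The KO minus WT log2 difference of the NEBNext set less that of the Ovation set was -1.13 for Tie1 and -1.46 for Gja4, with every KO library above every WT library in the Ovation set and below in the NEBNext set. In the limma interaction test, adjusted over all genes, neither passed (adjusted p = 0.134 for Tie1 and 0.236 for Gja4).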

How the results depend on the processing

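The count of endothelial genes that passed over all libraries was 0 under the other pseudocounts, filters, scalings, variance models and covariates, and 0 to 1 when each library was left out (Fli1 without WT 1, adjusted p = 0.0430, and Aplnr without WT 4, adjusted p = 0.0338). Within the Ovation set it was 1 with a robust variance (Cdh5, adjusted p = 0.0315) and 0 to 1 on leaving out a library (Cdh5 without KO S_280). Within the NEBNext set and in the interaction it was 0 to 0. The median log2 difference of the list ranged from -0.10 to 0.06 over all libraries and from -0.18 to -0.05 in the NEBNext set on leaving out a library. In the Ovation set it ranged from 0.13 to 0.44 (0.44 without KO S_258) and was -0.050 with litter 1 alone. The count over all genes was 272, was 102 with litter 1 alone in the Ovation set, and ranged from 106 to 337 on leaving out a library (106 without KO 2, 168 without KO S_284, and 124 and 127 without the WT libraries S_252 and S_254). Differences near 0 changed sign on leaving out a library, between -0.033 and 0.27 for Tie1, -0.26 and 0.056 for Eng, and -0.41 and 0.023 for Gja4. With a block for the replicate numbers 3 and 4 the count was 0 over all libraries and 0 in the NEBNext set, with medians of -0.01 and -0.08, and the count over all genes was 290. The correlation of deviations was 0.20 for number 3 and -0.04 for number 4, against -0.16 to 0.215 for libraries of unlike numbers. So few correlations cannot settle whether these numbers pair the libraries. The causes of these shifts were not tested.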
